A study of Homo sapiens with 7 samples.

Results

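The genes described here are 9 accessory genes of the pluripotent state, DPPA2, DPPA4, UTF1, ZFP42 (also called REX1), L1TD1, LIN28A, LIN28B, TERF1 and TERT. They were taken by name, by a rule that uses no measured value, although earlier results of these data were known when the genes were chosen, and each matched 1 row of the 22670 gene rows in the expression tables. RNA-seq was performed on the SEES3 line of human embryonic stem cells (hESCs), an established line, with 1 library in each of 7 conditions. Every library carried a transgene that is switched on by doxycycline (Dox, 1 μg/ml), in a stable selected clone. In JMJD3c-hESCs the transgene encodes the HA-tagged catalytic domain of JMJD3 (KDM6B), an enzyme that removes methyl groups from lysine 27 of histone H3, and cells were sampled without Dox (Day 0) and after 1, 2, 3 and 4 days of Dox (Days 1 to 4). In JMJD3c mut-hESCs the transgene encodes a point mutant without catalytic activity, and cells were sampled without Dox and with 4 days of Dox. Both lines were kept in a medium for undifferentiated hESCs throughout. All levels are FPKM, sequenced fragments scaled by the length of the transcript and the number of mapped fragments of the library, which allows levels of different genes to be compared.

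These genes sit around the core network of POU5F1, SOX2 and NANOG rather than in it. DPPA2 and DPPA4 are neighbouring genes whose SAP-domain proteins pair with each other on chromatin and keep developmental promoters in a poised state, and UTF1 is a chromatin-bound factor found at the same kind of promoter. LIN28A and LIN28B are RNA-binding proteins that block maturation of the let-7 microRNAs. They hold the precursor by its loop. In the route known for LIN28A, a terminal uridylyltransferase adds a uridine tail, and the exonuclease DIS3L2 then destroys the precursor. TERT is the catalytic subunit of telomerase, and TERF1 (TRF1) is the shelterin subunit that coats double-stranded telomeric DNA. Several serve as markers of undifferentiated hESCs.

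The promoters of UTF1, DPPA2 and DPPA4 are shown because UTF1 and DPPA2 had the lowest Day 4 to Day 0 ratios of the 9, whereas DPPA4, the neighbour of DPPA2, stayed far nearer to its Day 0 level. Each line is the 250 bases before the RefSeq start site (GRCh38.p14), 5′ to 3′ on the strand of the gene, and capitals mark GC boxes (GGGCGG on either strand). The regions are chr10:133229967-133230216 on the plus strand for UTF1, chr3:109316518-109316767 on the minus strand for DPPA2 and chr3:109337547-109337796 on the minus strand for DPPA4.
UTF1: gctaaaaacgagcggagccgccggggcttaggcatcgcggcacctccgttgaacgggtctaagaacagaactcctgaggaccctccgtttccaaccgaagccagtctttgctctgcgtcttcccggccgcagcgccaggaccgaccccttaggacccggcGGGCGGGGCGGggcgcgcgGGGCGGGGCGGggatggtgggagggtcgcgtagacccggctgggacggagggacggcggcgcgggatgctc
DPPA2: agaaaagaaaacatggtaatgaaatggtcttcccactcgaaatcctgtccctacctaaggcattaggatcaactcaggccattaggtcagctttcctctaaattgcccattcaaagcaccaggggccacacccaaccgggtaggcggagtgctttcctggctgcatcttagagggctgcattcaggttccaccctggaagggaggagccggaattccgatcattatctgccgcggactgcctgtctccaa
DPPA4: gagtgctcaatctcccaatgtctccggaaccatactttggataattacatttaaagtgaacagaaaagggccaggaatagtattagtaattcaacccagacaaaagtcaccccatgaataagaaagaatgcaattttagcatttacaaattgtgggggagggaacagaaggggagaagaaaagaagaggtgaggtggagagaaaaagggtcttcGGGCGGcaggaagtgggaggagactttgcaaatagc
The promoters of the 2 genes with the lowest ratios differed in base composition. With the 50 bases after the start included, the UTF1 window was 71.7% G and C with 39 CpG dinucleotides, and the DPPA2 window was 51.3% G and C with 7. The DPPA4 window had 45.3% G and C and 5 CpG. Over all 35116 RefSeq windows of the same 300 bases the medians were 58.7% and 14 CpG. UTF1 held 6 GC boxes, 4 of them in the bases shown, where the boxes overlap in pairs by 1 base. DPPA4 held 1, and DPPA2 none. A GC box was present in 45.0% of all windows. Windows were available for 7 of the 9 genes, 8 windows in all, and 6 of the 8 held a GC box. The E-box CACGTG was found in the windows of LIN28B and TERT, and in 7.26% of all windows. Neither the octamer core ATGCAAA (4.46% of all windows) nor the SOX motif CATTGTT (3.33%) was found in these 8 windows on either strand.

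The let-7 sequences are shown because they are what LIN28A and LIN28B act on. Mature let-7g-5p is given with its seed, bases 2 to 8, in capitals, and the let-7g hairpin with the GGAG that LIN28 proteins bind, bases 54 to 57, in capitals. let-7a-5p has the same seed. let-7 itself was not measured in these poly(A)-selected libraries.
let-7g-5p: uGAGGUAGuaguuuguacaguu
let-7g hairpin: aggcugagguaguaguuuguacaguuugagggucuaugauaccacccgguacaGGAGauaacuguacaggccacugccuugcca

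KDM6B, the gene that holds the JMJD3 sequence, checked the Dox labels, but not the line labels, since both transgenes hold that sequence. It was at 3.45 FPKM at Day 0 and between 158 and 282 FPKM on Days 1 to 4, and at 2.40 FPKM without Dox and 454 FPKM with Dox in JMJD3c mut-hESCs. The tables give no read totals. From the spacing of low FPKM values the libraries were estimated to hold between 1760000 reads (Day 0) and 3620000 reads (mutant without Dox), or between 3520000 and 7240000 if 1 step is only a part of a read. Each FPKM has a 95% interval from Cufflinks, and intervals of ratios were computed from those bounds. With 1 library per condition no test between conditions was possible. The intervals cover the estimation of 1 library and not the spread between cultures. A gene was called downregulated where the ratio was below 0.5 with more than 4 FPKM in the reference library, and upregulated where the treated library exceeded 4 FPKM and was more than 2 times the reference. In bulk RNA, fewer cells that express a gene and less RNA per cell cannot be told apart.

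Of the 9 genes, 4 were downregulated at Day 4 (UTF1, DPPA2, TERT and TERF1), against 8.07% of the 9605 genes over 4 FPKM at Day 0. All 9 were lower than at Day 0, a direction shared by 58.9% of those genes. Cufflinks intervals of the 2 libraries were apart for 8 of 9, L1TD1 being the exception, against 5.87% of genes lower with intervals apart. Such shares, here and below, cover genes of all levels above 1 FPKM, whereas intervals are relatively narrower at high levels. LIN28A was among the 8 at a ratio of 0.912, although 47.1% of genes over 4 FPKM at Day 0 had a lower ratio. Its intervals were only just apart, with a lower bound of 463.4 FPKM at Day 0 and an upper bound of 463.1 at Day 4. The median log2 change of the 9 genes, on the log2(FPKM + 1) scale, on Days 1 to 4 was -0.24, -0.42, -0.58 and -0.76. Over all genes above 4 FPKM in either library the medians were -0.03, -0.05, -0.01 and -0.06. No member was downregulated at Day 1 (3.47% of all genes), DPPA2 and UTF1 were at Day 2 (4.51%), and DPPA2, UTF1 and TERT were at Day 3 (4.79%). DPPA4, UTF1, ZFP42, LIN28B, TERF1 and TERT, 6 of the 9, were lower on each day than on the day before, as were 3.99% of genes over 4 FPKM at Day 0. Intervals of neighbouring days overlapped at every step for ZFP42, LIN28B and TERT, and at all but the step to Day 1 for DPPA4.

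In mutant cells all 9 were also lower with Dox than without (51% of all genes), and none of the 9 was downregulated (1.59% of all genes). TERT could not be called against either mutant library, since its 3.17 FPKM without Dox and 3.12 with Dox were below the 4 FPKM required. The median log2 change of the 9 was -0.22, against 0.00 over all genes and -0.76 for the 9 in JMJD3c-hESCs. Intervals were apart for DPPA4, L1TD1, LIN28A and TERF1, against 1.59% of all genes that were lower with intervals apart. Between the 2 lines after 4 days of Dox, 9 of 9 were lower in JMJD3c-hESCs (55.4% of all genes), the median log2 difference was -0.74, and DPPA2 and UTF1 passed the 2-fold cutoff (3.21% of all genes). Intervals were apart for all but TERT (7.16% of all genes). The Day 4 library is part of this comparison and of that with Day 0, so they are not independent. The labels do not say whether the 2 lines were cultured and sequenced together, so line, culture and run cannot be told apart in any value set between the lines.

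DPPA2 (chromosome 3, 109012635 to 109035364, minus strand, hg19) measured 13.3, 11.1, 5.52, 6.15 and 2.78 FPKM on Days 0 to 4. In the mutant line it was at 14.8 FPKM without Dox and 11.9 with Dox. Day 4 was the lowest of the 7 libraries, and Days 2 and 3 lay between it and the other 4. The Day 4 to Day 0 ratio was 0.209 (95% interval 0.105 to 0.414), whereas the mutant ratio was 0.803 (0.510 to 1.26). These values rest on few reads: the interval widths were those of about 28 reads at Day 0 and 12 at Day 4. The Day 3 interval overlapped that of Day 0.

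DPPA4 (109044988 to 109056419, same strand) starts its row 9623 bases from the end of the DPPA2 row and was far more abundant. It was at 326 FPKM at Day 0, then 270.2, 245, 227 and 208 on Days 1 to 4. Mutant cells had 318 FPKM without Dox and 273 with Dox. Day 4 over Day 0 was 0.639 (0.566 to 0.721) and the mutant ratio 0.859 (0.802 to 0.921), so that both lines were lower with Dox, JMJD3c-hESCs by more. The FPKM ratio of DPPA4 over DPPA2 was 24.4 (16.7 to 35.8) at Day 0 and 74.9 (41.8 to 134) at Day 4. In the mutant line it was 21.5 without and 23.0 with Dox. The Day 0 and Day 4 intervals of this ratio did not overlap, and those of the mutant line did.

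UTF1 (chromosome 10, 135043778 to 135045062, plus strand) had the lowest ratio of the 9. Its levels on Days 0 to 4 were 125, 83.7, 50.7, 39.0 and 21.5 FPKM. The mutant line had 72.9 FPKM without Dox and 55.2 with Dox, both below Day 0 and Day 1. The ratio was already 0.670 (0.541 to 0.830) at Day 1, with intervals apart, and reached 0.172 (0.124 to 0.239) at Day 4. Of the 9605 genes over 4 FPKM at Day 0, 1.12% had a lower ratio. The untreated lines themselves differed, with the mutant at 0.584 (0.476 to 0.717) of Day 0, so the size of the change depended on the reference. Day 4 was 0.295 (0.213 to 0.407) of the untreated mutant line and 0.389 (0.278 to 0.545) of the Dox-treated one. The Day 0 value sat near the upper end of its Cufflinks interval, 125 in 91.3 to 129.6, and the Day 4 value nearer the middle, 21.5 in 13.8 to 26.6.

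ZFP42 (chromosome 4, 188916925 to 188926204, plus strand) encodes a zinc finger protein widely used as a marker of undifferentiated cells. It was at 97.0 FPKM at Day 0, and at 82.7, 72.8, 66.6 and 60.4 on Days 1 to 4. JMJD3c mut-hESCs had 109.6 FPKM without Dox and 105 with Dox. All 4 Dox-treated JMJD3c libraries were below the other 3. Its Day 4 to Day 0 ratio was 0.623 (0.534 to 0.728), short of the 2-fold cutoff, and the mutant ratio was 0.961 (0.864 to 1.07).

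**Figure D1:**
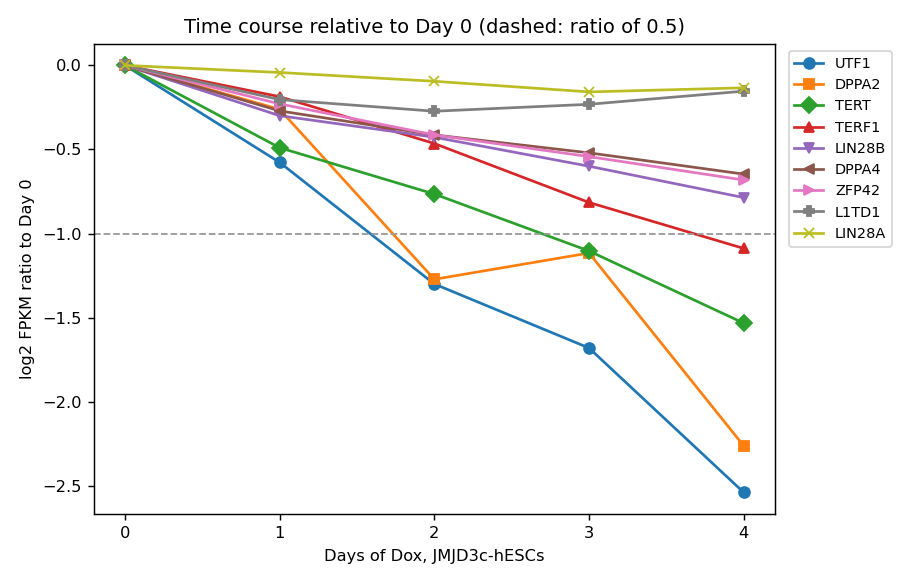
Log2 ratio of FPKM to Day 0 (vertical axis) against days of Dox in JMJD3c-hESCs, 1 line per gene, with a dashed line at a ratio of 0.5. UTF1 and DPPA2 cross the dashed line by Day 2, TERT by Day 3 and TERF1 by Day 4, while LIN28A and L1TD1 stay within 0.3 of Day 0.

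LIN28A (chromosome 1, 26737269 to 26756213, plus strand) had the highest level of the 9 in every library and varied least. It was at 485 FPKM at Day 0, then 471, 454, 435 and 442 on Days 1 to 4. Levels in the mutant line were 529.7 FPKM without Dox and 484 with Dox. Day 4 over Day 0 was 0.912 (0.856 to 0.971) and the mutant ratio was 0.914 (0.874 to 0.957). The log2 FPKM ratio with Dox (no pseudocount) in JMJD3c-hESCs minus that in the mutant line was -0.00 (-0.12 to 0.11), an interval that includes 0.

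LIN28B (chromosome 6, 105404923 to 105531207, plus strand), its paralog, did differ between the lines. It was at 43.8 FPKM at Day 0, then 35.6, 32.5, 28.9 and 25.4 on Days 1 to 4. The mutant line had 50.2 FPKM without Dox and 43.0 with Dox. The Day 4 to Day 0 ratio was 0.580 (0.492 to 0.683) against 0.856 (0.761 to 0.963) in the mutant line. LIN28A was 11.1 times (9.84 to 12.5) as abundant as LIN28B at Day 0, and 17.4 times (15.3 to 19.8) at Day 4. The ratio in the mutant line was 10.5 without and 11.3 with Dox. The intervals of the ratio were apart in JMJD3c-hESCs and overlapped in the mutant line.

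**Figure D2:**
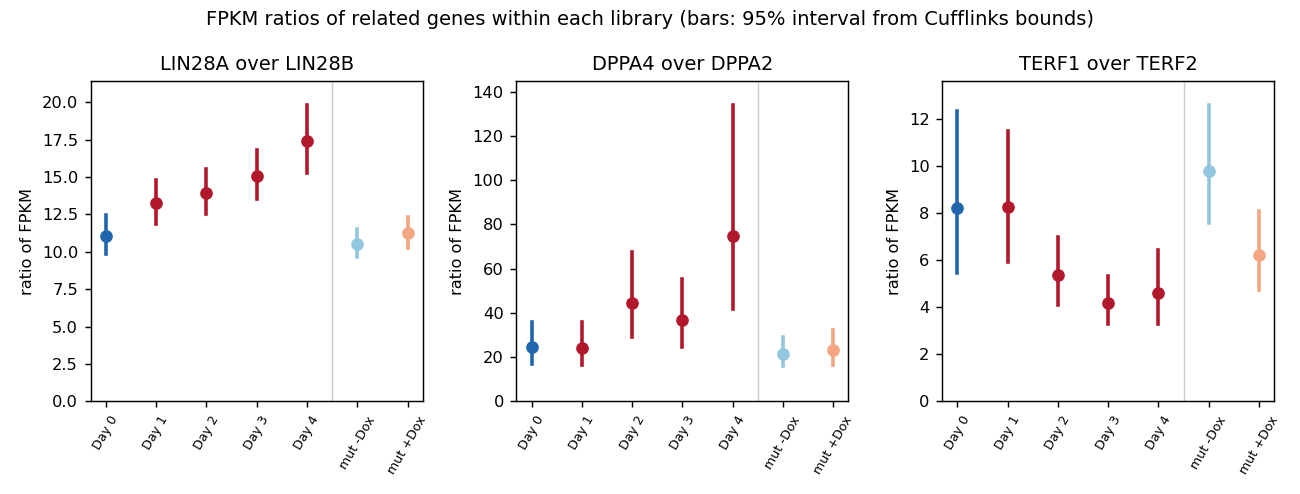
FPKM ratio within each library (linear axis from 0) of LIN28A over LIN28B, DPPA4 over DPPA2 and TERF1 over TERF2, with 95% intervals from the Cufflinks bounds and colours as in the plot of levels. The first ratio goes from 11.1 to 17.4 and the next from 24.4 to 74.9 between Day 0 and Day 4, while TERF1 over TERF2 goes from 8.20 to 4.60.

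Of 8 genes that process or destroy let-7 precursors, none was upregulated at Day 4 (6.31% of all genes were). Their median log2 change was -0.13, and 1 was downregulated (8.07% of all genes). The one was DIS3L2, the exonuclease of tailed precursors, at 22.8 FPKM at Day 0 and 10.2, 16.3, 9.57 and 7.24 on Days 1 to 4. DIS3L2 was at 8.18 FPKM in the untreated mutant line, so Day 0 was the highest of the 7 libraries and all 6 others were below it. DICER1, which cuts the precursor, had 18.9 FPKM at Day 0 and 12.1 at Day 4, and the intervals overlapped. DGCR8, the partner of DROSHA, was at 11.2 and 18.2 FPKM, and the uridylyltransferase gene ZCCHC6 at 2.89 and 4.64. Among 14 genes known as let-7 targets, 1 was downregulated (MYC, 53.3 to 22.4 FPKM), beside 8.07% of all genes, and none was upregulated. With intervals apart, 7 were lower (5.87% of all genes) and 0 higher (4.66% of all genes). Their median log2 change was -0.22. MYCN was at 28.6 FPKM at Day 0 and 14.5 at Day 4, while HMGA2 was at 49.9 and 60.1 and CCND2 at 37.2 and 38.9. In the mutant line none of the 14 had intervals apart (1.59% of all genes were lower with intervals apart). The untreated mutant line was itself lower than Day 0 with intervals apart for 4 of the 14 (5.67% of all genes). It was higher for 1 (5.7% of all genes).

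L1TD1 (chromosome 1, 62660503 to 62678000, plus strand) encodes an RNA-binding protein that arose from the open reading frame of a LINE-1 element and associates with LIN28A. It was at 239 FPKM at Day 0, and at 208, 198, 204 and 215 on Days 1 to 4. JMJD3c mut-hESCs had 357 FPKM without Dox and 318 with Dox, above all 5 JMJD3c libraries, and the untreated value lay just above its own Cufflinks interval, as 1 of the 63 values of the 9 genes did. The lowest value was at Day 2, and Day 4 was 0.899 (0.827 to 0.977) of Day 0, with overlapping Cufflinks intervals. The mutant ratio was 0.891 (0.845 to 0.941), and the difference between the lines in log2 FPKM ratio was 0.01 (-0.13 to 0.16). The line itself was the larger difference for this gene: without Dox the mutant was 1.49 times Day 0 (1.39 to 1.60).

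TERF1 (chromosome 8, 73921099 to 73960357, plus strand) was at 178 FPKM at Day 0, then 156, 129, 101 and 83.5 on Days 1 to 4. Mutant cells had 222 FPKM without Dox and 165 with Dox. Day 4 was lowest and the untreated mutant line highest. The Day 4 to Day 0 ratio was 0.470 (0.402 to 0.550), and TERF1 also had the lowest ratio of the 9 in the mutant line, 0.744 (0.676 to 0.820). The log2 FPKM ratio in JMJD3c-hESCs minus that in the mutant line was -0.66 (-0.93 to -0.40). Against the Dox-treated mutant line the Day 4 ratio was 0.506 (0.438 to 0.583), just short of the cutoff, and against the untreated one it was 0.376 (0.328 to 0.432). With that untreated reference 3 of the 9 were downregulated, TERF1, UTF1 and DPPA2 (4.18% of all genes). GENCODE lists 7 processed copies named as TERF1 pseudogenes, 4 of DPPA2, 2 of DPPA4 and 2 of LIN28A. None of them has a row in the tables, so reads shared with a copy cannot be traced.

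The other 5 shelterin genes were not lower as a group. None was downregulated at Day 4 (8.07% of all genes), with a median log2 change of 0.29. None had intervals apart in either direction (5.87% of all genes lower and 4.66% higher). TERF2, the paralog of TERF1, had 21.7 FPKM at Day 0 and 18.2 FPKM at Day 4, and 24.1 and 24.2 FPKM on Days 2 and 3. TINF2, which bridges the DNA-binding subunits, was at 18.6 and 11.2 FPKM. ACD (TPP1) was at 16.8 and 21.2 FPKM. POT1, which binds the single-stranded overhang, passed the 2-fold cutoff upward (6.31% of all genes), at 5.33 and 14.6 FPKM, but its intervals overlapped. TERF1 over TERF2 was 8.20 (5.46 to 12.3) at Day 0 and 4.60 (3.28 to 6.44) at Day 4, and 9.78 (7.59 to 12.6) without and 6.20 (4.74 to 8.10) with Dox in the mutant line. It was lower with Dox in both lines, and the Day 4 interval overlapped that of Day 0, as did the intervals of the 2 mutant libraries. At Day 3 it was 4.17 (3.27 to 5.31), with an interval apart from that of Day 0.

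TERT (chromosome 5, 1253282 to 1295162, minus strand) was the least abundant of the 9 in every library. It was at 5.89 FPKM at Day 0, then 4.19, 3.47, 2.74 and 2.04 on Days 1 to 4. The mutant line had 3.17 FPKM without Dox and 3.12 with Dox, which lay within the range of the Dox-treated JMJD3c libraries. The Day 4 to Day 0 ratio was 0.346 (0.177 to 0.677) and the mutant ratio 0.984 (0.602 to 1.61). With the untreated mutant line as the reference the Day 4 ratio was 0.642 (0.334 to 1.24), an interval that includes 1. That reference was also below the 4 FPKM that a call needs. The call thus held against Day 0 only, of these 2 references. Interval widths were those of about 30 reads at Day 0 and 12 at Day 4. Among 10 genes of the telomerase holoenzyme and its assembly, none was downregulated (8.07% of all genes) or upregulated (6.31% of all genes). The median log2 change was -0.11, and 2 were lower with intervals apart (5.87% of all genes). These were NHP2, at 209 FPKM at Day 0 and 141 at Day 4, and RUVBL2, at 85.0 and 61.8. SHQ1 and NAF1, assembly factors, were at 11.2 and 17.7 FPKM and at 14.97 and 18.0 FPKM. The untreated mutant line had 148 FPKM of NHP2 and 58.1 of RUVBL2, and Day 0 was the highest of the 7 libraries for both. Of the 10 genes, 3 were lower in that line than at Day 0 with intervals apart (5.67% of all genes). None of the 10 was higher with intervals apart (5.7% of all genes).

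The order of the levels changed with Dox in JMJD3c-hESCs. At Day 0 it was LIN28A, DPPA4, L1TD1, TERF1, UTF1, ZFP42, LIN28B, DPPA2 and TERT, and neighbours in that order had intervals apart except UTF1 and ZFP42. At Day 4 UTF1 had moved from the fifth place to the seventh and lay beside LIN28B, with overlapping intervals. L1TD1 and DPPA4 also overlapped at Day 4, as did DPPA2 and TERT. The untreated mutant line had L1TD1 above DPPA4 with overlapping intervals and UTF1 below ZFP42 with intervals apart, so the 2 lines did not start from 1 order. In the mutant line the order of the 9 was the same with Dox as without. Between the untreated lines the median log2 difference of the 9 (mutant minus Day 0) was 0.14, none passed the 2-fold cutoff (7.34% of all genes did downward and 2.98% upward), UTF1 was lower with intervals apart, and L1TD1, TERF1 and LIN28A were higher with intervals apart (5.67% of all genes lower and 5.7% higher).

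The log2 FPKM ratio with Dox in JMJD3c-hESCs minus that in the mutant line, both without a pseudocount, had an interval below 0 for 7 of the 9 genes, against 11.6% of 9575 genes over 4 FPKM at Day 0 with a value above 0 in all 4 libraries. It was -2.14 for UTF1 (-2.70 to -1.57) and -1.95 for DPPA2 (-3.13 to -0.76). TERT had -1.51 with the widest interval (-2.71 to -0.31). For ZFP42, LIN28B and DPPA4 the differences were -0.62, -0.56 and -0.43. LIN28A and L1TD1 were the 2 whose intervals included 0.

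For the 4 genes whose log2(FPKM + 1) spanned more than 1 across the 7 libraries, the genes with the most similar profile were sought among 2368 genes (2369 for TERT), by Pearson's r over the 7 libraries, 5 of which are 1 clone. HK1, a hexokinase, was nearest to UTF1 (r = 0.994), followed by ECEL1 (0.984), and 80 candidates had r over 0.9. HK1 went from 111 FPKM at Day 0 to 52.2 at Day 4 and ECEL1 from 23.8 to 3.92. KDR (0.977), the VEGF receptor, and MATK (0.969) were nearest to DPPA2, with 41 candidates over 0.9. SLC39A10, a zinc transporter (0.982), and UGP2 (0.980) were nearest to TERF1, with 47 over 0.9, and RAC3 (0.987) and MMP11 (0.974) to TERT, with 74.

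Other markers moved over the same libraries. Of 10 markers of pluripotent hESCs, 9 were lower at Day 4 than at Day 0 (58.9% of all genes) and 3 were downregulated (8.07% of all genes). These were DNMT3B (404 to 191 FPKM), PRDM14 (32.5 to 15.1) and SOX2 (135.6 to 65.9, named after its values were seen). The median log2 change of the 10 was -0.62, beside -0.76 for the 9 genes. Lower with intervals apart were 7 (5.87% of all genes). In the mutant line all 10 were lower with Dox (51% of all genes), with a median of -0.26 and 1 downregulated (1.59% of all genes). Between the lines after 4 days of Dox, the median log2 difference (JMJD3c minus mutant) was -0.12 for the markers and -0.74 for the 9. With intervals apart, 1 marker was lower (7.16% of all genes) and 2 were higher, beside 8 lower of the 9 genes. Of 9999 genes over 4 FPKM in either library, 758 were higher with intervals apart in this comparison. The lines did not start from the same levels. Without Dox the median log2 difference (mutant minus Day 0) was -0.23 for the markers and 0.14 for the 9 genes. Of the markers, 4 were lower with intervals apart (5.67% of all genes). The summed FPKM of the markers was 2083 at Day 0 and 1375 at Day 4, and 1782 without and 1509 with Dox in the mutant line. The markers of the labelled cell type were thus present throughout. SALL4 was at 61.5 and 54.0 FPKM and GDF3 at 20.6 and 32.1. GDF3 was the 1 marker downregulated in the mutant line, at 22.6 FPKM without Dox and 11.1 with Dox. The summed FPKM of 10 mesendoderm markers was 6.35 at Day 0 and 323 at Day 4, with 9 of 10 upregulated (6.31% of all genes). In the mutant line the sum was 14.6 without and 9.91 with Dox. CER1 and EOMES were listed at 0 at Day 0 and were at 134 and 38.2 FPKM at Day 4. Summed neuroectoderm markers (8 genes) ranged from 120.3 to 199 FPKM over the JMJD3c libraries and were 99.5 and 132 in the mutant line. NES made up most of that sum, at 106 FPKM at Day 0 and 162 at Day 4, and 85.5 and 115 in the mutant line. Of the 8 markers, 7 were higher at Day 4, 3 with intervals apart (4.66% of all genes), and 0 lower. PAX6 (2.22 to 5.91 FPKM) and ZIC1 (4.99 to 15.8) were upregulated (6.31% of all genes), with overlapping intervals. SIX3 was at 6.64 and 13.2 FPKM. Summed fibroblast markers (8 genes) ranged from 123 to 169 FPKM, and were 93.2 and 130.1 in the mutant line. THY1 made up most of that sum, at 118 FPKM at Day 0 and 124 at Day 4, COL1A1 had 11.3 and 7.42, and COL1A2 had 19.4 and 23.2. TWIST1 was listed at 0 at Day 0 and reached 5.61 FPKM at Day 4, with intervals apart, PDGFRA had 0.222 and 3.82 with overlapping intervals, and DCN and LUM were at 0 in every library. Trophoblast and amnion markers (8 genes) summed to 28.0 FPKM at Day 0 and 15.05 at Day 4, and to 19.9 and 17.7 in the mutant line. TFAP2C (24.0 and 8.36 FPKM at Days 0 and 4) and KRT7 (3.98 and 1.06) were lower with intervals apart. GATA3 was listed at 0 at Day 0 and was higher at Day 4, at 2.68 FPKM with intervals apart, and TFAP2A and ISL1 were listed at 0 and then at 1.89 and 1.05 FPKM with overlapping intervals. CGA, CGB5 and HAND1 were at 0 on both days. The part of these markers in the levels of the 9 genes was not tested. Of 12 germline and naive-state genes, DPPA3 and DPPA5 included, none was over 4 FPKM at Day 0. None could therefore be called downregulated, and 3 were upregulated at Day 4 (6.31% of all genes). These were TBX3 (1.96 to 5.71 FPKM), KLF5 (0.941 to 4.11) and PRDM1 (0.233 to 4.29), the last with overlapping intervals. The list summed to 9.30 FPKM at Day 0 and 19.8 at Day 4, and to 14.4 and 5.66 in the mutant line, so its members were low in all 4 of these libraries.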

How the data were processed

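Poly(A) RNA of 7 SEES3 cultures was sequenced as single-end reads, 1 library per condition. Per the labels and the methods, the authors aligned reads to hg19 with TopHat 2.0.13 and computed FPKM and 95% bounds per gene with Cufflinks 2.1.1. CASAVA 1.4 is also named in the processing notes. The deposited FPKM values were used without further scaling. FPKM carry no counts, so a count test was not used, and depth is known only from the spacing of low values. Log2 changes used log2(FPKM + 1), except log2 FPKM ratios, with their intervals and the differences between the lines, which had no pseudocount. Ratio intervals took the interval width divided by 4 as the SD of each FPKM and combined both libraries on the log scale. A call needed a 2-fold change and more than 4 FPKM. Shares of genes with intervals apart were counted over genes above 1 FPKM in either library. All genes were processed alike and only the 9 and the listed genes are printed. The scripts were tested on simulated data.

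The 9 genes, the gene lists and the rules were chosen with earlier results of these data known. Named beside the 9 were KDM6B, up to 4 genes of each list (the highest and lowest Day 4 changes among genes over 4 FPKM), and for members ranging over 1 log2 unit the 2 genes with the highest r, among genes with mean FPKM over 4 and a range over 1. SOX2, DPPA3, DPPA5 and the fibroblast and trophoblast markers at 0, or low at Day 0 and higher at Day 4, and KRT7 were named outside this rule, after their values were seen. Promoter and microRNA sequences came from RefSeq (GRCh38.p14), places of rows from the deposited tables (hg19), pseudogenes from GENCODE. Protein sequences were not analysed here. Alternatives were other scalings, FPKM cutoffs of 1, 10 and none, pseudocounts of 0.1 and 4, summed rows, intervals apart, the untreated mutant line as reference and Day 3 as treated. Computation used Python 3.11.15 with pandas 2.3.3, numpy 2.4.6, matplotlib 3.10.9 and scipy 1.17.1.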

Additional observations from a re-analysis of the deposited data

How the results depend on the processing

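The 4 downregulated genes at Day 4 became 3 with a cutoff of 10 FPKM, with the untreated mutant line as reference or with Day 3 as treated, and the count was 4 under the other 6 alternatives. Some of these could not change it. Summed rows could change no value of the 9 genes, since each has 1 row. A cutoff of 1 FPKM or none left the calls as they were, since all 9 exceeded 4 FPKM at Day 0. The median log2 change of the 9 genes at Day 4 lay between -0.85 and -0.58 over its 7 alternatives. In the mutant line the count of downregulated genes was 0 under every alternative run, of which summed rows and a cutoff of 10 FPKM could not raise it. With the untreated mutant line as reference, the Day 4 log2 change moved beyond the estimation error for UTF1 (-1.72), L1TD1 (-0.73), LIN28A (-0.26) and TERF1 (-1.40), and with Day 3 as treated for UTF1 (-1.66) and TERF1 (-0.81). The other 57 values for single genes did not, and none changed direction. No paired analysis was possible because each condition has 1 library, for which reason no replicate could be left out either. Depth limits DPPA2 and TERT most, since their intervals correspond to 12 to 41 reads.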
